A study of Homo sapiens with 6 samples.

Results

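The 10 genes described here are DKK4 and other beta-catenin targets or WNT antagonists, most of them in the negative feedback of WNT signalling: the secreted antagonists DKK1, DKK4 and NOTUM, the membrane proteins LGR5, RNF43, ZNRF3 and TNFRSF19, the intracellular regulators AXIN2 and NKD1, and the transcription factor SP5. They were found by gene symbol in the annotation of an Illumina expression beadchip, on 15 of 47323 probes, or 10 of 20046 genes with a named probe. By the labels, the arrays measured RNA of Huh7, a human hepatocellular carcinoma line. The cells had 24 h with sorafenib, given at 3 mM in the labels, or 24 h with its solvent DMSO alone. Each group held 3 samples, and whether another unit than mM was meant was not settled. Sorafenib is an oral inhibitor of RAF kinases and of receptor tyrosine kinases that is used against this cancer. Nothing in the labels tells whether a group's samples came from separate cultures. A p-value therefore covers the spread among 3 samples a group, and that spread may be technical.

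WNT ligands bind a Frizzled receptor together with the co-receptor LRP5 or LRP6, which stops a cytoplasmic complex built on AXIN and APC from marking beta-catenin for destruction. Beta-catenin then enters the nucleus and activates genes with TCF and LEF factors, among them inhibitors of the same pathway. In the liver this pathway marks the hepatocytes around the central vein, and mutations that stabilise beta-catenin are frequent in hepatocellular carcinoma.

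The 6 samples carried a set of probe signals that were not normalized between arrays and a separate table of normalized values, and these did not come from the same arrays. For 1 and the same sample, the Spearman correlation of signal and table columns was 0.848 to 0.863 across probes. It was 0.846 to 0.863 for columns of different samples of the sets, and 0.923 to 0.942 between columns within either set. The first set is termed signal arrays here and the second value-table arrays. Each was normalized and tested on its own. No probe was read for HNF4A, a listed hepatocyte-lineage marker. All 8 measured hepatocyte-lineage markers, including ALB and AFP, passed the filter on low values in both sets. Their DMSO levels in log2 (no background correction) were far apart between the sets for some. FGB lay at 7.50 on the signal arrays, near their DMSO detection levels of 7.36 to 7.44, and at 14.49 on the value-table arrays. TTR lay at 8.83 on the signal arrays and 12.75 on the value-table arrays. ALB went the other way, at 15.23 and 12.31. APOA1 (15.10 and 13.89), APOB (14.92 and 13.49) and SERPINA1 (14.51 and 13.80) were also higher on the signal arrays. AFP (14.54 and 14.66) and TF (14.525 and 14.5327) lay close together. The tetraspanin CD81 was not detected on any signal array, with log2 levels of 7.002 with sorafenib and 6.86 with DMSO (no background correction), whereas it lay at 14.25 with sorafenib and 14.32 with DMSO on the value-table arrays. HepG2, another line named in the design text, is known to lack CD81 and to carry a deletion in CTNNB1 that stabilises beta-catenin, and Huh7 is known for neither. Which line either set came from was not settled. Median signals ranged between 120.2 and 144.5 over the 6 signal arrays, and 16476 to 17476 probes per array had a detection p under 0.01. The number of arrays, 3 a group, limits the precision of every value.

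The members were chosen by symbol with their DMSO levels and their sorafenib differences in both sets already known, and so were in effect selected on these measured values. For that reason they are given as a description, and no p is given for any member. On the signal arrays 14 of the 15 probes were kept, which covers all 10 genes. On the value-table arrays 6 probes were kept, for 6 genes. DKK4, LGR5, NKD1 and NOTUM were not above the filter level, a log2 value of 7.40, on any of the 6 value-table columns.

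In DMSO the 10 genes differed in level between the sets. Signals normalized without background correction were set beside the value table as deposited, both in log2. The DMSO level of each member was higher on the signal arrays, by 1.95 log2 units for RNF43 up to 6.26 log2 units for NKD1. NKD1 averaged 13.06 ± 0.05 on the DMSO signal arrays and 6.80 ± 0.11 on the DMSO value-table arrays (SD, n = 3 each). AXIN2, one of the most widely used readouts of beta-catenin activity, averaged 12.84 ± 0.03 on the DMSO signal arrays and 8.21 ± 0.06 on the DMSO value-table arrays. DKK4 averaged 11.19 ± 0.09 on the DMSO signal arrays and 6.60 ± 0.09, below the filter level, on the DMSO value-table arrays. The median difference of the 10 members was 3.86 log2 units, against 0.10 over 11558 genes kept in either set. All 10 members were over 1 log2 unit higher on the signal arrays, where 10.8% of those genes were. The members were chosen with these levels known, so nothing is read from this share or from the medians. Levels in sets normalized separately describe the values only. The part that the cell line plays in these levels was not tested.

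**Figure D1:**
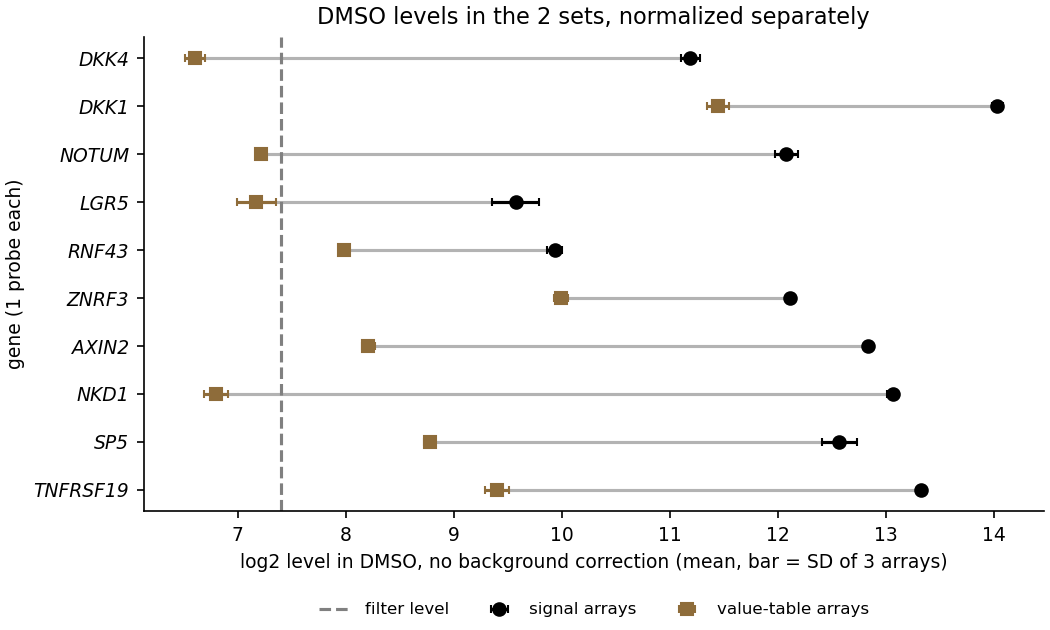
Log2 level in DMSO of the 10 genes, 1 probe each, from signals without background correction and from the value table as deposited. Circles are means of 3 signal arrays, squares means of 3 value-table arrays, bars the SD, and the dashed line the filter level of 7.40. Every circle lies right of its square, and the squares of DKK4, NOTUM, LGR5 and NKD1 lie left of the line.

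The response to sorafenib split the members. On the signal arrays DKK4, LGR5 and NKD1 were lower and DKK1, NOTUM, AXIN2 and TNFRSF19 higher with sorafenib, in each case with no overlap between the groups, while SP5, RNF43 and ZNRF3 overlapped. These 7 genes passed limma's adjusted threshold of 0.05, 4 higher and 3 lower, in a comparison where 31.0% of 10523 genes passed (16.8% higher and 14.2% lower) and the groups of 47.5% did not overlap (24.6% higher and 22.8% lower). On the value-table arrays 3 of the 6 kept members passed, all higher, where 19.5% of 10595 genes passed (11.3% higher and 8.17% lower) and the groups of 39.8% did not overlap (21.7% higher and 18.1% lower). Over all kept probes 26.8% passed on the signal arrays and 17.7% on the value-table arrays. The members' contrast was used to choose them, so nothing is read from these counts. The median log2 difference of the members was 0.17 on the signal arrays, against 0.00 over all genes, and 0.16 on the value-table arrays, against 0.01. In bulk RNA, fewer cells that express a gene and less of its RNA per cell cannot be told apart.

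**Figure D2:**
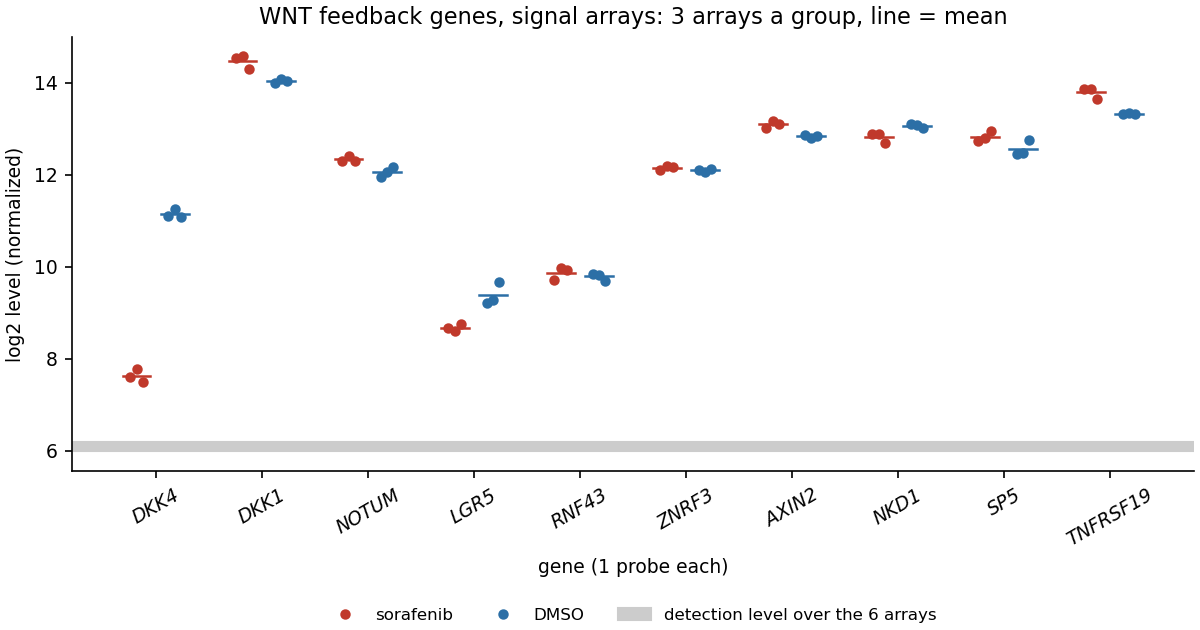
Normalized log2 level of the 10 genes on the signal arrays; each point is 1 array, sorafenib left of DMSO, lines are group means, and the grey band is the detection level of 5.99 to 6.19. The DKK4 points of sorafenib lie more than 3 log2 units under those of DMSO, and no other gene shows a gap of that size.

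DKK4 is a secreted protein that binds LRP5 and LRP6 and blocks WNT signalling, and its gene is itself a beta-catenin target. Its signal, before normalization, was 321.0, 330.6 and 235.7 on the 3 sorafenib arrays, against 2175, 3069 and 2044 on the 3 DMSO arrays. After normalization its log2 level was 7.60, 7.77 and 7.50 on the sorafenib arrays and 11.11, 11.24 and 11.07 on the DMSO arrays. The groups lay far apart, with a difference of -3.30 log2 units between the nearest arrays, and DKK4 was detected on all 6. The log2 difference was -3.52 (SE 0.10), an 11.4-fold lower level with sorafenib. With this background correction, the only one for which the rank is given, none of the other 10522 genes measured had a more negative difference. DKK4 was chosen with this difference known, so nothing is read from its rank. The size depended on the background correction, with a log2 difference of -2.97 without any and -3.10 with normexp, which takes no detection p. In the value table DKK4 gave log2 values of 6.61, 6.42 and 6.65 with sorafenib, against 6.63, 6.50 and 6.67 with DMSO. All of these lay under the filter level, so no response of DKK4 could be measured there.

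Genes whose profile lay nearest to that of DKK4 were found among the 10522 other genes of the signal arrays, by Euclidean distance over the 6 arrays between log2 levels taken relative to the DMSO mean of each gene. The nearest was CCL20, a chemokine, at a distance of 0.62. It averaged 8.94 ± 0.05 with sorafenib and 12.12 ± 0.07 with DMSO (SD, n = 3). SPRY4, an inhibitor of receptor tyrosine kinase signalling, followed at 1.09, then the phosphatase subunit PPP2R2C at 1.28, the homeobox gene HOXD1 at 1.36 and the ERK phosphatase DUSP6 at 1.42. PPP2R2C was detected on 1 of 3 sorafenib arrays, so its sorafenib level of 6.03 lies near the detection level and its difference is uncertain. No other member was among these 5 genes. The distance depends largely on the size of the fall, and the next largest fall among the members was -0.70 log2 units, for LGR5. Their absence therefore followed from differences already known, and nothing is read from it.

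DKK1, the best known DKK antagonist, binds the same co-receptors and went the other way. Its brighter probe (ILMN_1773337) had log2 levels of 14.54, 14.57 and 14.29 with sorafenib on the signal arrays, against 13.98, 14.09 and 14.03 with DMSO. The value-table arrays gave it 11.91, 11.98 and 11.99 with sorafenib, against 11.33, 11.49 and 11.52 with DMSO. The groups did not overlap in either set. The difference was 0.43 log2 units (SE 0.08), or 1.35-fold, on the signal arrays and 0.51 (SE 0.07), or 1.43-fold, on the value-table arrays. A second DKK1 probe (ILMN_2174189) was also higher on the signal arrays, by 0.76 (SE 0.15), and was not above the filter level on the value-table arrays.

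NOTUM is a secreted enzyme that removes the lipid WNT proteins need to bind Frizzled. The probe ILMN_2166275 gave log2 levels of 12.31, 12.40 and 12.30 with sorafenib, against 11.95, 12.06 and 12.17 with DMSO, on the signal arrays. The groups were separated by 0.13 log2 units, and the difference was 0.28 (SE 0.07). Its other probe (ILMN_1744455) had a similar difference of 0.30 (SE 0.11), but its groups overlapped and it passed only with the replicate number as a block. Both NOTUM probes were under the filter level on the value-table arrays.

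At the cell surface, LGR5 is a receptor for R-spondins, secreted proteins that strengthen WNT signalling, and it marks stem cells of several epithelia. Its log2 level was 8.67, 8.60 and 8.77 with sorafenib, against 9.20, 9.27 and 9.66 with DMSO, on the signal arrays. Every sorafenib array lay under every DMSO array, and the nearest ones differed by -0.44 log2 units. The difference was -0.70 (SE 0.13), a 1.63-fold lower level.

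R-spondins act by removing RNF43 and ZNRF3, membrane ubiquitin ligases that send Frizzled receptors for degradation. RNF43 had log2 levels of 9.71, 9.96 and 9.94 with sorafenib, against 9.84, 9.83 and 9.70 with DMSO, on the signal arrays. ZNRF3 had 12.10, 12.18 and 12.17 with sorafenib, against 12.10, 12.07 and 12.11 with DMSO. Both overlapped between the groups, with differences of 0.08 (SE 0.09) for RNF43 and 0.06 (SE 0.06) for ZNRF3. Both also overlapped on the value-table arrays, with differences of -0.03 (SE 0.09) for RNF43 and -0.05 (SE 0.08) for ZNRF3. Each of these differences was smaller than its SE.

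TNFRSF19, or TROY, is a receptor of the TNF receptor family whose gene is a beta-catenin target. Its brightest probe (ILMN_1704154) gave log2 levels of 13.86, 13.86 and 13.64 with sorafenib, against 13.31, 13.34 and 13.33 with DMSO, on the signal arrays. The same probe gave, in the value table, 9.89, 9.83 and 10.02 with sorafenib, against 9.44, 9.49 and 9.27 with DMSO. Every sorafenib array lay above every DMSO array in both sets. The difference was 0.46 (SE 0.07), or 1.38-fold, on the signal arrays and 0.51 (SE 0.09), or 1.43-fold, on the value-table arrays. Among the other 3 probes, which the annotation assigns to another transcript of the gene, ILMN_1714757 and ILMN_2379823 were higher by 0.81 (SE 0.15) and 0.67 (SE 0.17) on the signal arrays. ILMN_2379823 was detected on 1 of 3 DMSO arrays, and ILMN_1783244 was detected on none of the 6 arrays. These 3 probes were not above the filter level on the value-table arrays.

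AXIN2, a scaffold of the complex that destroys beta-catenin, was higher in both sets by nearly the same amount. Its log2 level was 13.02, 13.18 and 13.11 with sorafenib, against 12.86, 12.80 and 12.84 with DMSO, on the signal arrays. It was 8.48, 8.42 and 8.51 with sorafenib, against 8.18, 8.27 and 8.17 with DMSO, on the value-table arrays. The groups did not overlap in either set, and the difference was 0.27 (SE 0.06) on the signal arrays and 0.26 (SE 0.08) on the value-table arrays.

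NKD1 binds Dishevelled, the protein that relays the signal from Frizzled, and was lower where AXIN2 was higher. Its log2 level was 12.89, 12.88 and 12.68 with sorafenib, against 13.10, 13.08 and 13.004 with DMSO, on the signal arrays. No sorafenib array reached the DMSO arrays, and the nearest ones differed by -0.11 log2 units. The difference was -0.24 (SE 0.07), a 1.18-fold lower level.

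SP5 is a zinc-finger transcription factor that beta-catenin induces and that damps the response of other WNT targets. Its log2 level was 12.74, 12.80 and 12.94 with sorafenib, against 12.45, 12.48 and 12.75 with DMSO, on the signal arrays, where DMSO replicate 3 reached above sorafenib replicate 1. The difference of 0.27 (SE 0.09) did not pass. With the replicate number as a block, SP5 passed, at the same difference (SE 0.05), and each sorafenib array lay above the DMSO array of its own number. It also passed without DMSO replicate 3. SP5 had, on the value-table arrays, 8.91, 8.78 and 8.80 with sorafenib, against 8.79, 8.72 and 8.82 with DMSO, a difference of 0.05 (SE 0.08) with overlapping groups.

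The TCF and LEF factors bind a short core, searched here as CTTTGA on both strands (TCAAAG read from the other strand) in the 250 bases before the transcript start. RefSeq promoters (GRCh38.p14) were matched for 4 of the 10 members: SP5, DKK1, TNFRSF19 and RNF43. In this spelling the core occurred 3 times for SP5 and 2 times for DKK1, and not in the windows of TNFRSF19 or RNF43. These letters were present at least once in 11.2% of 35116 promoter windows of that length, at least 2 times in 0.977% and at least 3 times in 0.0655%. The windows of SP5 (chr2:170715087-170715336, plus strand) and DKK1 (chr10:52314031-52314280, plus strand) are shown because they hold CTTTGA or TCAAAG, which stand in capitals. Other spellings of the core were not searched. A match describes the letters and does not show a site in use.
SP5: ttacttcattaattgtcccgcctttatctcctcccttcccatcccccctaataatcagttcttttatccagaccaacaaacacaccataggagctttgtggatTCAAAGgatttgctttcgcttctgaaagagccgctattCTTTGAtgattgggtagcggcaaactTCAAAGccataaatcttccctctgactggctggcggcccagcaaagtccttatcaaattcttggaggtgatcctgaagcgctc
DKK1: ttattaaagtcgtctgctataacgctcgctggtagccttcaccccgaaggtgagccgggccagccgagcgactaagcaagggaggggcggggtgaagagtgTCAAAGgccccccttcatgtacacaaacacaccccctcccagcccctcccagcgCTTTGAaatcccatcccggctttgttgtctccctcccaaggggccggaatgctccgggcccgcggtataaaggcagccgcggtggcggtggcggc

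**Figure D3:**
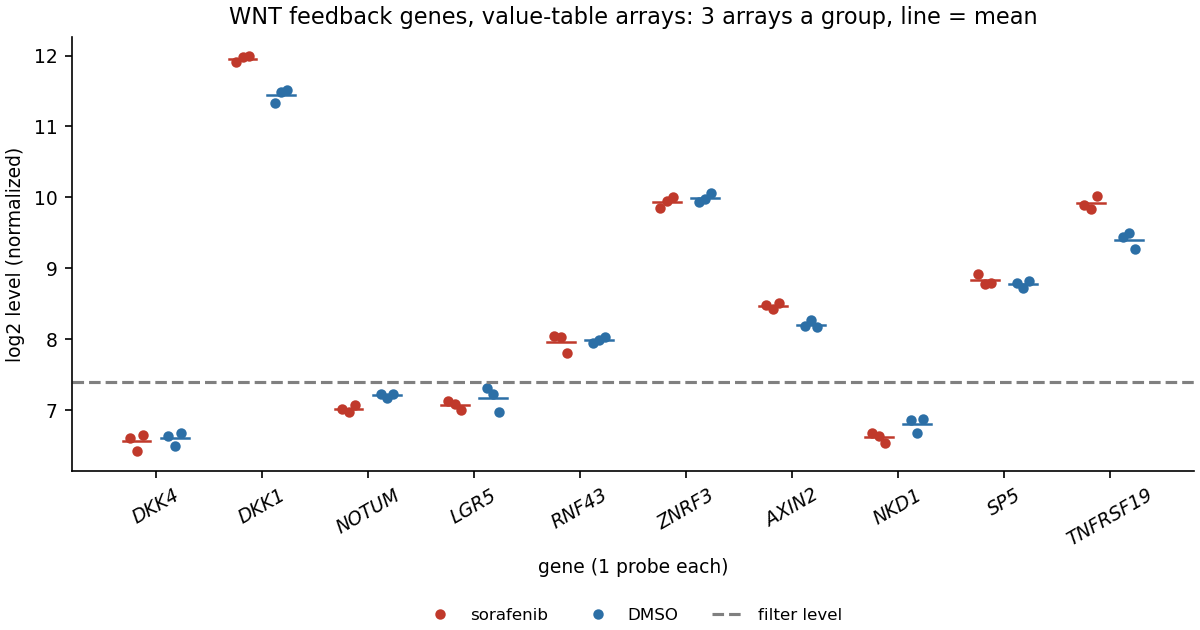
Log2 level of the same probes on the value-table arrays; each point is 1 array, sorafenib left of DMSO, lines are group means, and the dashed line is the filter level of 7.40. DKK1, AXIN2 and TNFRSF19 show sorafenib points above all DMSO points, and DKK4, NOTUM, LGR5 and NKD1 lie under the line.

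**Figure D4:**
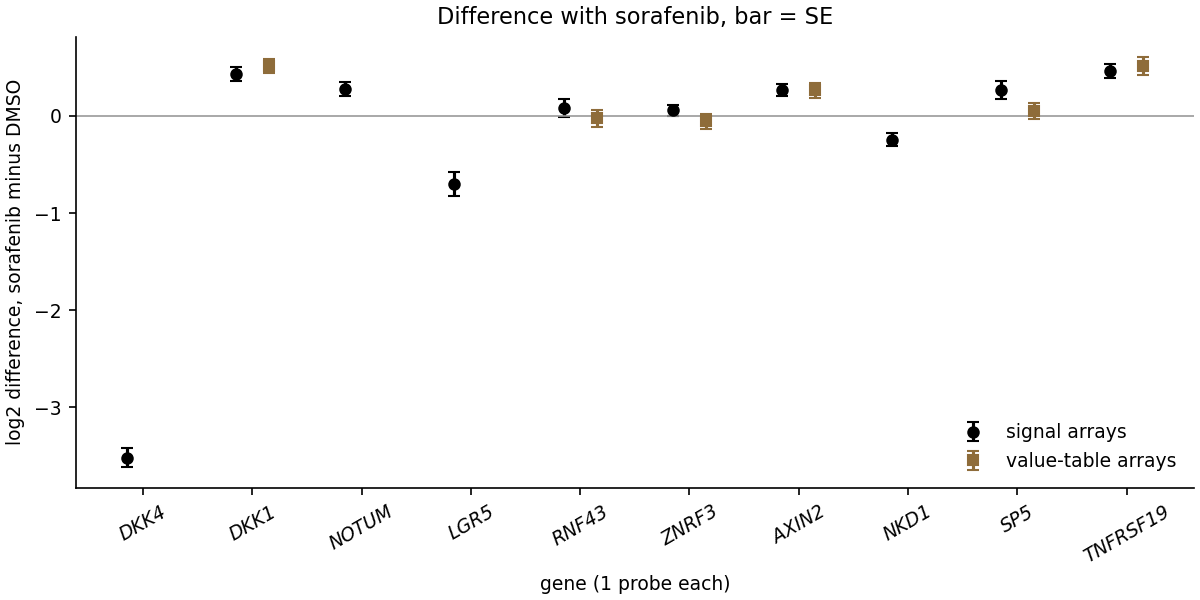
Log2 difference, sorafenib minus DMSO, of the 10 genes on the signal arrays (circles) and of the 6 genes kept on the value-table arrays (squares), with the SE. DKK1, AXIN2 and TNFRSF19 lie between 0.26 and 0.51 in both sets, and DKK4 lies at -3.52.

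Some of the calls among the members rested on single arrays, on the scaling, on the intensity trend or on the filter. The members were chosen with the differences on these same arrays known, so a call that held in these fits is no further support. On the signal arrays DKK1, DKK4, AXIN2, LGR5 and TNFRSF19 passed in each of the 6 fits that left out 1 array. NKD1 did not pass without sorafenib replicate 3, DMSO replicate 1 or DMSO replicate 2, and NOTUM did not pass without sorafenib replicate 2, DMSO replicate 1 or DMSO replicate 2. With median scaling 4 members passed, DKK1, DKK4, LGR5 and TNFRSF19. Without the intensity trend NKD1 and NOTUM did not pass on the signal arrays. On the value-table arrays DKK1 and TNFRSF19 passed in each of the 6 fits that left out 1 array, and AXIN2 in none. There AXIN2 also did not pass without the filter on low values.

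The other genes of the pathway were taken from lists by role, 111 genes of which 108 had a probe. On the signal arrays 51 were kept; 11 rose, 3 fell and 37 did not pass limma's adjusted threshold (median log2 difference 0.00), where 31.0% of all genes passed. With the replicate number as a block 14 rose and 6 fell, adding FZD2, DVL2 and BCL9L among the higher and WNT3, KREMEN1 and NKD2 among the lower. The value-table arrays kept 49 of them; 4 rose, 4 fell and 41 did not pass (median 0.00), where 19.5% of all genes passed, and with the block 7 rose and 4 fell, adding DVL2, TCF7L1 and OAT. Nothing particular to the pathway is read from these counts. FZD4, which rose, and LRP5, which fell, passed in the same direction in both sets, as did SFRP4. In DMSO SFRP4 was undetected on the signal arrays and under the filter level on the value-table arrays.

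Among 10 kept receptors on the signal arrays, 1 rose, 2 fell and 7 did not pass. The Frizzled receptor FZD4 had log2 levels of 13.75, 13.75 and 13.99 with sorafenib, against 12.92, 13.04 and 13.03 with DMSO, on the signal arrays. It rose 1.78-fold there (limma adjusted p = 8.37e-05) and 1.46-fold on the value-table arrays (adjusted p = 0.00207). The co-receptor LRP5, the target of DKK proteins, fell 1.32-fold on the signal arrays, to 11.64 ± 0.07 with sorafenib, against 12.04 ± 0.04 with DMSO (limma adjusted p = 0.00197). It fell 1.30-fold on the value-table arrays (adjusted p = 0.0105), where these were the 2 of 9 kept receptors that passed. FZD9 fell 1.82-fold on the signal arrays (adjusted p = 0.0033) and was not kept on the value-table arrays.

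Other antagonists rose where they passed, 2 of 4 kept in each set. SFRP4 and SFRP5 encode secreted proteins that bind WNT ligands. SFRP4 was detected on no DMSO signal array and on all 3 sorafenib signal arrays, and was at least 2.05-fold higher with sorafenib (limma adjusted p = 0.000237). This bound holds for the background correction used: the log2 difference of SFRP4 was 1.64 with it, 0.75 without any and 0.90 with normexp, and the values without it and with normexp lie under the bound. In the value table it was at least 1.07-fold higher, taken against the filter level (adjusted p = 0.0275). SFRP5 rose 1.93-fold on the signal arrays, to 8.05 ± 0.17 with sorafenib, against 7.10 ± 0.41 with DMSO (adjusted p = 0.00715). DKK3, a divergent DKK family member, rose 1.28-fold on the value-table arrays (adjusted p = 0.0214) and was not kept on the signal arrays. That call of SFRP4 was held in 1 of 6 fits that left out 1 array, that without DMSO replicate 2. The call of DKK3 was lost without sorafenib replicate 2 or 3 or DMSO replicate 1 (adjusted p = 0.0507 to 0.0722).

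Few ligands were measurable. Of 19 WNT genes, 1 was kept in each set. WNT5A, a ligand that mostly signals without beta-catenin, was above the filter level on no DMSO column and on all 3 sorafenib columns of the value-table arrays, and was at least 1.52-fold higher with sorafenib (limma adjusted p = 0.00158). WNT3 was the ligand kept on the signal arrays, with a log2 difference of -0.42 (limma adjusted p = 0.117, and 0.0391 with the block). Of the 2 kept genes for R-spondins and other LGR receptors, LGR4 rose 1.45-fold on the signal arrays (adjusted p = 0.0148), a call lost without sorafenib replicate 3 or DMSO replicate 2 (adjusted p = 0.0503 and 0.0519). LGR4 had a log2 difference of -0.16 on the value-table arrays, with no overlap (limma adjusted p = 0.193). Neither of 2 such genes passed limma's threshold on the value-table arrays, where 1 had an unadjusted p under 0.05 and no call came with the block.

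Next came the cytoplasmic and nuclear machinery. Beta-catenin itself, CTNNB1, named here after its values were seen, averaged 10.60 ± 0.08 with sorafenib and 10.59 ± 0.16 with DMSO on the signal arrays (SD, n = 3, limma adjusted p = 0.978). In the value table it averaged 10.83 ± 0.14 with sorafenib and 11.02 ± 0.31 with DMSO (adjusted p = 0.412). In the list of Dishevelled and destruction complex genes, 1 of 10 kept genes passed on the signal arrays, AMER1, which rose 1.23-fold (adjusted p = 0.0381), and none of 9 passed limma's threshold on the value-table arrays, where 1 had an unadjusted p under 0.05 and 1, DVL2, passed with the block. Of 13 kept TCF factors and co-factors on the signal arrays, 2 rose and none fell. TLE1, a co-repressor that binds TCF factors, rose 1.70-fold (adjusted p = 0.000171), and PYGO2, a co-activator of beta-catenin, 1.25-fold (adjusted p = 0.03). TLE1 had a log2 difference of -0.13 on the value-table arrays, with no overlap (limma adjusted p = 0.197). PYGO2 had a log2 difference of 0.02 there, with overlapping groups (adjusted p = 0.881). In the value table TLE3, a relative of TLE1 above the filter level on 1 of 3 sorafenib columns, was the 1 call of 14 and fell 1.25-fold (adjusted p = 0.0382). AMER1 kept its call in 1 of the 6 fits that left out 1 array, that without sorafenib replicate 1. The same held for PYGO2, and for TLE3 the call was held only without DMSO replicate 2. Of the 2 kept AMER1 probes, 1 passed. AMER1 did not pass with median scaling (limma adjusted p = 0.341), without the filter (0.0643) or without the intensity trend (0.0804). PYGO2 did not pass with median scaling (limma adjusted p = 0.204) or without the filter (0.0832). TLE3 did not pass without the filter (limma adjusted p = 0.0574).

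Targets of beta-catenin outside the feedback group also went both ways. On the signal arrays the transcription factor gene MYC fell 1.56-fold, to 12.00 ± 0.05 with sorafenib, against 12.64 ± 0.14 with DMSO (limma adjusted p = 0.000366), and ID2, an inhibitor of helix-loop-helix factors, rose 1.65-fold (adjusted p = 8.78e-05). The other 4 kept genes of this list did not pass. On the value-table arrays neither MYC nor ID2 passed, with log2 differences of 0.08 for MYC (limma adjusted p = 0.692) and -0.15 for ID2 (adjusted p = 0.246). Of 5 genes kept on the value-table arrays, 2 passed. Cyclin D1, CCND1, fell 1.25-fold (adjusted p = 0.0362), and JUN fell 1.22-fold (adjusted p = 0.036). Neither call was stable: CCND1 passed only without DMSO replicate 3, and JUN without sorafenib replicate 1 or DMSO replicate 3, among the 6 fits that left out 1 array. On the signal arrays the log2 difference was -0.10 for CCND1 (limma adjusted p = 0.394) and 0.16 for JUN (adjusted p = 0.321).

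Of the targets known from the hepatocytes around the central vein, 3 of 5 kept genes rose on the signal arrays and none fell. GLUL and TBX3 did not pass there, with log2 differences of 0.31 for GLUL (limma adjusted p = 0.212) and -0.15 for TBX3 (adjusted p = 0.318). SLC1A2, a glutamate transporter, had log2 levels of 8.66, 8.80 and 8.67 with sorafenib, against 7.24, 7.59 and 7.64 with DMSO, and rose 2.33-fold (limma adjusted p = 0.000206). RHBG, an ammonium transporter, rose 2.09-fold, to 9.91 ± 0.22 with sorafenib, against 8.84 ± 0.23 with DMSO (adjusted p = 0.000655). OAT, ornithine aminotransferase, rose 1.21-fold (adjusted p = 0.0326), a call held in 1 of the 6 fits that left out 1 array, that without DMSO replicate 3. On the signal arrays OAT also did not pass with median scaling (limma adjusted p = 0.277) or without the intensity trend (0.0909). None of the 4 kept genes of this list passed limma's adjusted threshold on the value-table arrays, where 1, OAT, had an unadjusted p under 0.05 and passed with the block. SLC1A2 was not kept on the value-table arrays.

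**Figure D5:**
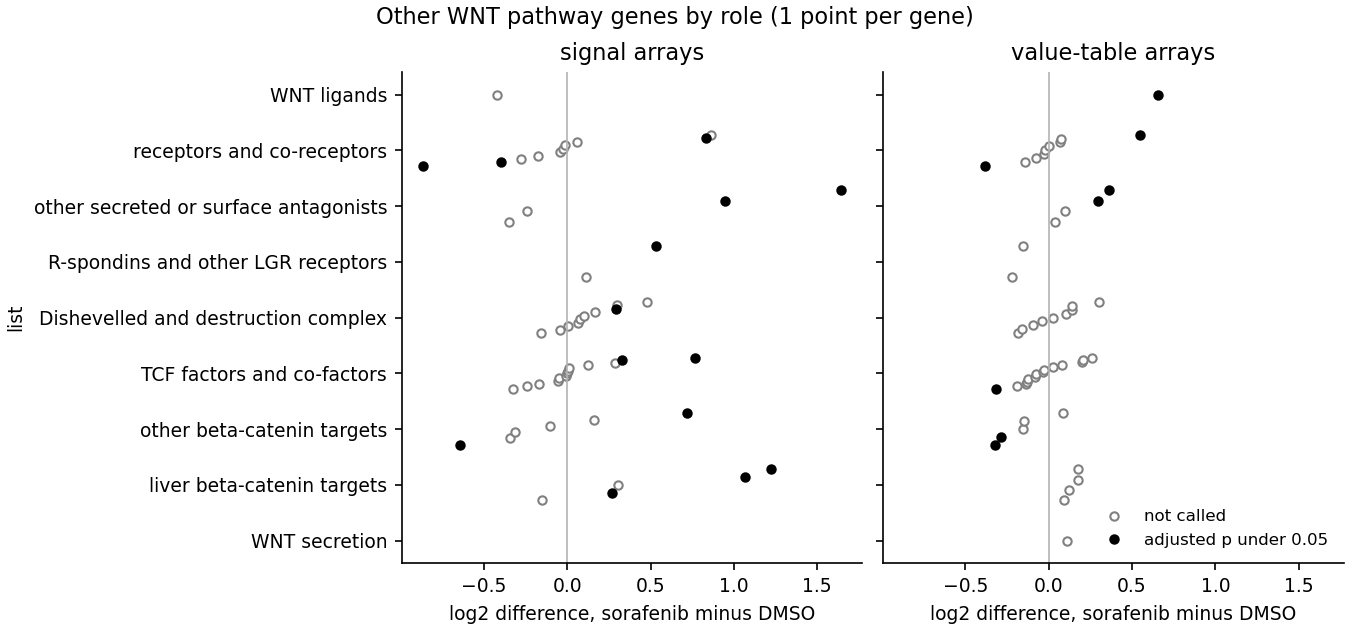
Log2 difference, sorafenib minus DMSO, of the other WNT pathway genes by list, 1 point per gene, on the signal arrays (left) and the value-table arrays (right); filled points passed limma's adjusted threshold of 0.05. Filled points lie on both sides of 0 in both sets, 11 right and 3 left on the signal arrays and 4 right and 4 left on the value-table arrays.

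Markers of other cell types were checked beside these changes. The summed linear level of 4 immune markers was 7527 to 8395 on the sorafenib signal arrays, against 12115 to 14230 on the DMSO signal arrays, and 5236 to 8000 on the sorafenib value-table arrays, against 11451 to 13055 on the DMSO value-table arrays. The lysozyme gene LYZ made most of this sum and fell in both sets, while CD68, measured on every array of both sets, did not pass. Its log2 difference was 0.01 on the signal arrays (limma adjusted p = 0.946) and -0.06 on the value-table arrays (adjusted p = 0.655). The defining leukocyte markers PTPRC and CD3E were detected on no signal array and were under the filter level on every value-table array. The summed level of 5 stromal markers was 11936 to 13701 on the sorafenib signal arrays, against 8406 to 8491 on the DMSO signal arrays, with COL1A1, COL3A1 and DCN undetected. ACTA2 rose by 0.65 log2 units there (limma adjusted p = 0.000129), and PDGFRB, detected on 0 of 3 sorafenib and 3 of 3 DMSO arrays, was at least 1.22-fold lower with sorafenib (adjusted p = 0.00266). None of the 5 was kept on the value-table arrays. The 4 endothelial markers were undetected on the signal arrays, and PECAM1 was the 1 kept on the value-table arrays. The summed endothelial level was 838 to 975 on the sorafenib value-table arrays, against 977 to 1260 on the DMSO value-table arrays. PECAM1 had a log2 difference of -0.34 there (limma adjusted p = 0.108, and 0.00265 with the block). The part of these markers in the members' differences was not tested.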

How the data were processed

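The authors deposited probe signals of 6 samples as linear intensity, not normalized between arrays, with a detection p-value beside each, per the file headers. The deposited value table was taken as log2 from its values, 6.08 to 15.85 with a median of 7.10 in each column; how it was made is not given in the sources used here. With limma, the neqc function (offset 16) corrected the background of the signals and quantile-normalized them; 17115 probes detected (p under 0.01) on 3 or more of the 6 arrays were kept. From the value table, 17122 probes were kept that exceeded a log2 value of 7.40 in 3 or more columns, which is the mean level of detection in uncorrected signals. A gene was read from its brightest kept probe.

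Differences (sorafenib minus DMSO) were fitted by limma (version 3.58.1, R 4.3.3) with an intensity trend, as two-sided tests of the group, and p-values were Benjamini-Hochberg adjusted across every kept probe. The script was tested on simulated data. For genes undetected throughout 1 group, a lower bound of the fold was taken, setting the brighter group's mean against the detection or filter level of the dim arrays, or the probe's own level where higher. Same-numbered samples deviated together across probes (correlations of 0.34, 0.32 and 0.38 on the signal arrays and 0.43, 0.32 and 0.67 on the value-table arrays), so the numbers were taken to pair them, from the data alone, and a fit with the number as a block was an alternative.

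Symbols came from the platform annotation, which names 1 gene for 30113 probes, several for 8 and none for 17202. Genes named from the lists were the largest passing differences without overlap, at most 3 per list and direction, with the 5 genes nearest DKK4. The members and lists were chosen with earlier results of these data known. No chip identifier was found in the files, so no chip block was fitted.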

Additional observations from a re-analysis of the deposited data

How the results depend on the processing

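On the signal arrays 4588 probes passed, 2627 with median scaling and 2938 to 4337 without 1 array, the lowest without DMSO replicate 2. Of the 10 member genes 7 passed, 4 with median scaling, 5 without the intensity trend and 5 to 8 without 1 array. The log2 difference of DKK4 was -3.52, -2.97 without background correction, -3.10 with normexp and -3.59 to -3.45 without 1 array. Other differences also shrank without background correction, to 0.61 from 0.95 for SFRP5 and to -0.56 from -0.87 for FZD9. Those of SLC1A2 and LGR4 shrank to 0.88 from 1.22 and to 0.40 from 0.53, and all of these genes still passed. With the replicate block 6747 probes and 8 member genes passed; beyond the added calls given with the results, the block changed no call of a WNT gene named here. When probes of a gene were averaged, the differences of DKK1 and TNFRSF19 moved to 0.60 and 0.65. On the value-table arrays 3038 probes passed, 5456 with the replicate block and 1560 to 2494 without 1 array; the lowest counts came without sorafenib replicate 1 (1560) or 2 (1657) or DMSO replicate 1 (1676) or 3 (1929). Of the member genes 3 passed there, 2 without the filter and 2 without any 1 array. There 8 other WNT genes passed, 5 when a probe had to lie above the filter level on all 6 columns and 3 to 6 without 1 array, with 5 without sorafenib replicate 1 and 3 without sorafenib replicate 2 or 3 or DMSO replicate 1. Among the differences recomputed, only that of RNF43 on the value-table arrays, which did not pass, changed sign, with a log2 difference of 0.05 without sorafenib replicate 3, against -0.03 with all arrays. The cause of these shifts was not tested. A chip block was not run, since no chip was named. The number of arrays limits all of these values.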
